A study of Mus musculus with 6 samples.

Results

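The genes of the perineuronal net and of the wider brain extracellular matrix were followed in mPFC tissue from *Shank3* TG mice. The 10 genes were the lecticans *Acan*, *Bcan*, *Ncan* and *Vcan*, the link proteins *Hapln1*, *Hapln2* and *Hapln4*, the tenascins *Tnr* and *Tnc*, and the receptor phosphatase *Ptprz1*. They were chosen by symbol, through the names that GENCODE release M21 gives to the deposited Ensembl identifiers, and all 10 were found among the 18254 genes of the table. Both groups were C57BL/6J males of 10 to 12 weeks. The *Shank3* TG mice carried an EGFP-*Shank3* transgene, whose promoter is not given in the sources used here, and the WT mice were their littermates. There were 6 libraries, numbered 1, 2 and 3 within each genotype, and each pooled the mPFC of 2 mice of one genotype, so that a replicate is a pool. The values are normalized counts, that is, estimated reads per gene divided by the authors' size factors, and those of one library summed to between 28363967 and 29447717. The number of reads behind a value was not recovered, so the spread between the libraries is the only error given.

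Perineuronal nets are dense coats of matrix around the cell bodies and proximal dendrites of some neurons, most of all fast-spiking interneurons that express parvalbumin. Their backbone is hyaluronan, a long sugar polymer made at the cell surface. Lecticans, which are proteoglycans with chondroitin sulfate chains, bind hyaluronan through one end, link proteins of the Hapln family hold that contact in place, and tenascin-R joins the other ends into a mesh. A related matrix surrounds the nodes of Ranvier in myelinated tracts, where a versican isoform and Hapln2 (also called Bral1) are found. Aggrecan, the product of *Acan*, marks the mature net, whereas brevican and neurocan are also spread through the tissue between cells.

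*Shank3* stood at 17470, 19004 and 16310 normalized counts in TG-1, TG-2 and TG-3, against 8374, 8173 and 6791 in the respective WT libraries, so the libraries followed their labels (adjusted p-value 0.0643 by limma's test over all tested genes, and 0.000437 with the replicate number as a term, which brought it under 0.05). Parvalbumin interneuron, astrocyte and oligodendrocyte genes were all present, as cortical tissue holds them, and no gene of these marker lists was at 0 in any library. The libraries numbered 3 stood apart: across the tested genes, the deviations of TG-3 and WT-3 from their genotype means correlated at 0.62, a description over genes that share the libraries. Of the 10 matrix genes, 6 were lower in TG-3 than in the mean of TG-1 and TG-2 and also lower in WT-3 than in the mean of WT-1 and WT-2.

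For *Vcan* and *Hapln2*, each *Shank3* TG library lay below each WT library, and the *Shank3* TG means were 0.80 and 0.74 times the WT means. The groups of the other 8 genes overlapped. In bulk tissue, fewer cells of a type and less RNA per cell cannot be told apart. The genotypes were compared with limma's two-sided moderated test on log2(normalized count + 1) over the 16714 genes whose mean reached 5 normalized counts, with Benjamini-Hochberg adjustment over all of them. All 10 matrix genes were tested, and 0 had an adjusted p-value under 0.05, as did 0 of all tested genes (0%). With the replicate number as a term of the fit, and with the p-values rescaled to an empirical null, the number of matrix genes was again 0, against 0.00598% and 0.156% of all tested genes. With that term, 2 of the 10 genes had an unadjusted p-value under 0.05, against 4.98% of all tested genes. At an unadjusted p-value under 0.05, 2 of the 10 genes were lower in *Shank3* TG and 0 were higher, against 1.08% and 0.933% of all tested genes. Without overlap between the groups, 2 of 10 were lower and 0 higher, against 3.12% and 2.91% of all tested genes. The median log2 fold change of the 10 genes was 0.03, and that of all tested genes was 0.00. Without the libraries numbered 3, the same count of 2 lower and 0 higher was found at an unadjusted p-value under 0.05, against 1.25% and 1.56% of the 16634 genes tested there.

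**Figure D1:**
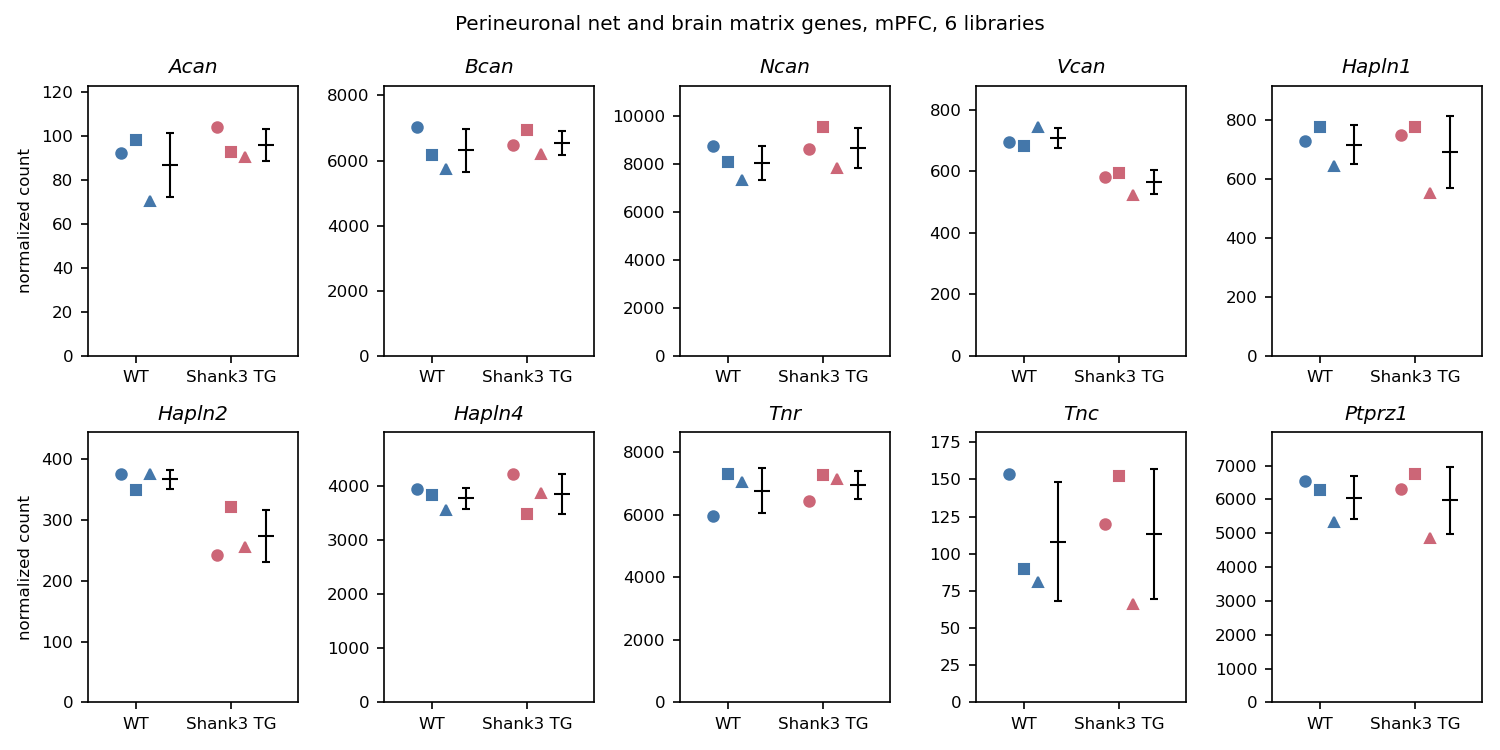
Normalized counts of the 10 matrix genes (vertical axes start at 0) in the 3 WT (blue) and 3 *Shank3* TG (red) libraries, with circles, squares and triangles for the libraries numbered 1, 2 and 3 and black bars for the mean and SD. Only *Vcan* and *Hapln2* have all red points below all blue points.

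*Vcan* encodes versican, a large lectican of loose matrix, of precursor cells and, as its V2 isoform, of nodes. It (ENSMUSG00000021614) lies on chromosome 13 from 89655312 to 89742509 on the minus strand of GRCm38. It stood at 581, 596 and 522 normalized counts in TG-1, TG-2 and TG-3, against 696, 683 and 743 in the respective WT libraries. The highest *Shank3* TG library was therefore below the lowest WT library. The means were 566 ± 38.6 (SD, n = 3) and 707 ± 31.8, and the log2 fold change was -0.32 (standard error 0.09, 95% interval from -0.53 to -0.11). By limma's test the unadjusted p-value was 0.00784, which placed *Vcan* at rank 65 of the 16714 tested genes, and its adjusted p-value was 1. At the replicate numbers 1, 2 and 3 the log2 difference was -0.26, -0.20 and -0.51, so that it was lower in *Shank3* TG at each.

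*Hapln2* encodes the link protein of nodes of Ranvier. It (ENSMUSG00000004894) lies on chromosome 3 from 88021750 to 88027583 on the minus strand. It stood at 242, 322 and 256 normalized counts in TG-1, TG-2 and TG-3, against 376, 349 and 376 in the respective WT libraries. TG-2 came closest to the WT libraries, and the groups did not overlap. The means were 273 ± 42.9 (SD, n = 3) and 367 ± 15.4, with a log2 fold change of -0.43 (standard error 0.13, 95% interval from -0.74 to -0.13). In limma's test the unadjusted p-value was 0.0106, at rank 84 of the 16714 tested genes, and the adjusted p-value was 1. The log2 difference was -0.63 and -0.55 at the replicate numbers 1 and 3 and -0.12 at number 2. Of all tested genes, 13.2% were lower in *Shank3* TG at all 3 numbers, as *Vcan* and *Hapln2* were among the 10 matrix genes.

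Lecticans and link proteins sit beside each other in the genome. *Bcan* lies 21519 bases from *Hapln2* on chromosome 3, *Ncan* 2222 bases from *Hapln4* on chromosome 8, *Vcan* 43659 bases from *Hapln1* on chromosome 13 and *Acan* 2 bases from *Hapln3* on chromosome 7, and no other gene of the table lies wholly between the members of a pair. The log2 fold changes were 0.05 for *Bcan* beside -0.43 for *Hapln2*, and -0.32 for *Vcan* beside -0.06 for *Hapln1*. For the other pairs they were 0.11 for *Ncan* (standard error 0.10) beside 0.03 for *Hapln4* (0.09), and 0.15 for *Acan* (0.17) beside 0.00 for *Hapln3* (0.37), which differed by less than their errors. *Hapln3*, the fourth link protein gene, was low, at 14.6 ± 3.68 normalized counts in *Shank3* TG (SD, n = 3), against 14.8 ± 4.41 in WT. The differences between neighbours were not tested.

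The sequences before the start sites of *Hapln2* and *Vcan*, the 2 lower genes, and of *Bcan*, the neighbour of *Hapln2* that was not lower, are printed from RefSeq's promoter table (GRCm38.p6). They are 170 bases each, 5′ to 3′ on the minus strand, at chr3:88027584-88027753, chr13:89742513-89742682 and chr3:88000357-88000526, and they end before the start of the gene in both RefSeq and GENCODE. Capitals mark any match to CCAAT, the GC box GGGCGG, the E-box CAGCTG, the SOX-like ACAATG or TATAAA on either strand, none of which contains another.
*Hapln2*: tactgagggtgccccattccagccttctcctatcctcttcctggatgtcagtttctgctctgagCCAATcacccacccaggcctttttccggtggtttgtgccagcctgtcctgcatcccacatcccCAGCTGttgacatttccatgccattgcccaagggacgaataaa
*Vcan*: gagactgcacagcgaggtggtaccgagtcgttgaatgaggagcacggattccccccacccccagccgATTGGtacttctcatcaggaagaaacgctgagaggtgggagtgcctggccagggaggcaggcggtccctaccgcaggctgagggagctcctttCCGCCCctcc
*Bcan*: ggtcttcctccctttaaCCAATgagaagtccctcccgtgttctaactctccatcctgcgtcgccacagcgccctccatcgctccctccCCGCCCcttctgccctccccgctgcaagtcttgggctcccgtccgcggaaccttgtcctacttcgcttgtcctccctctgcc
All 3 stretches hold a CCAAT match. Shares are given for the longer windows of 300 bases that the table holds, 32851 in all, of which 37.4% had a CCAAT match. The GC box is in the windows of *Vcan* and *Bcan* and in 35.7% of all windows. The E-box is in that of *Hapln2* and in 16.3% of all windows. Over the whole 300 bases, *Hapln2* was the only one of the 9 matrix genes with an entry to hold ACAATG, as 12.6% of all windows did, and TATAAA was found for *Ncan* and *Tnc* and in 13.6% of all windows. *Hapln4* has no entry.

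The other lecticans differed by less than the spread between the libraries. *Bcan* (ENSMUSG00000004892, chromosome 3 from 87987531 to 88000230) encodes brevican, the most abundant lectican of the adult brain. It stood at 6473, 6942 and 6195 normalized counts in TG-1, TG-2 and TG-3, against 7027, 6178 and 5727 in the respective WT libraries, and the WT libraries spanned the *Shank3* TG libraries. Its log2 fold change was 0.05 (standard error 0.09, 95% interval from -0.16 to 0.27). *Ncan* (ENSMUSG00000002341, chromosome 8 from 70093085 to 70120873) encodes neurocan, which is made by neurons and astrocytes. It stood at 8631, 9532 and 7835 normalized counts in TG-1, TG-2 and TG-3, against 8749, 8075 and 7316 in the respective WT libraries, with a log2 fold change of 0.11 (95% interval from -0.13 to 0.34). With single libraries left out that value ranged from 0.04 without TG-2 to 0.18 without TG-3. The lowest value of each genotype was in the library numbered 3.

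*Acan* (ENSMUSG00000030607, chromosome 7 from 79053483 to 79115099), the defining proteoglycan of the net, stood at 104, 92.8 and 90.2 normalized counts in TG-1, TG-2 and TG-3, against 92.0, 98.2 and 70.4 in the respective WT libraries. WT-3 lay below the other 5 libraries. The log2 fold change was 0.15 (standard error 0.17, 95% interval from -0.26 to 0.55), and it ranged from 0.01 without WT-3 to 0.24 without WT-2 with single libraries left out. The parvalbumin interneuron markers, 8 genes of which the potassium channel genes *Kcnc1* and *Kcnc2* and the neuregulin receptor gene *Erbb4* added the most normalized counts, with no correction for length, summed to between 13809 and 15530 normalized counts in *Shank3* TG and between 15176 and 15632 in WT. *Pvalb* stood at 1021, 836 and 921 normalized counts in TG-1, TG-2 and TG-3, against 1052, 1006 and 1010 in the respective WT libraries, with overlap. Per 1000 normalized counts of that sum, *Acan* had 6.51 ± 0.616 (SD, n = 3) in *Shank3* TG, against 5.62 ± 1.00 in WT, again with overlap.

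The link proteins *Hapln1* and *Hapln4* also overlapped between the genotypes. *Hapln1* (ENSMUSG00000021613, chromosome 13 from 89539796 to 89611652), the cartilage link protein and a component of the net, stood at 751, 776 and 553 normalized counts in TG-1, TG-2 and TG-3, against 730, 776 and 645 in the respective WT libraries. The libraries numbered 3 were the lowest of each genotype, at -27.6% and -14.3% relative to the mean of the other libraries of the genotype. A weakly read gene of the opposite strand, *Gm8546*, at 5.54 normalized counts on average, overlaps its span. The log2 fold change of *Hapln1* was -0.06 (95% interval from -0.40 to 0.28). *Hapln4* (ENSMUSG00000007594, chromosome 8 from 70083457 to 70090862), also called Bral2 and found with brevican in nets, stood at 4229, 3482 and 3863 normalized counts in TG-1, TG-2 and TG-3, against 3940, 3831 and 3562 in the respective WT libraries. Its log2 fold change was 0.03 (95% interval from -0.18 to 0.24), and the *Shank3* TG libraries enclosed the WT libraries.

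*Tnr* (ENSMUSG00000015829, chromosome 1 from 159523769 to 159931729) encodes tenascin-R, the crosslinker of lecticans. It stood at 6448, 7281 and 7162 normalized counts in TG-1, TG-2 and TG-3, against 5950, 7319 and 7063 in the respective WT libraries, with a log2 fold change of 0.04 (95% interval from -0.18 to 0.27). *Tnc* (ENSMUSG00000028364, chromosome 4 from 63959785 to 64047015) encodes tenascin-C, which is abundant in development and in injured tissue. It varied most of the 10 genes, with 120, 153 and 66.3 normalized counts in TG-1, TG-2 and TG-3, against 154, 89.5 and 81.2 in the respective WT libraries. The interval of its log2 fold change of 0.04, from -0.77 to 0.85, was the widest of the 10, and a change within it was not detectable at this spread. *Ptprz1* (ENSMUSG00000068748, chromosome 6 from 22875502 to 23052916) encodes a receptor phosphatase of glia whose secreted form, phosphacan, binds tenascins. It stood at 6300, 6762 and 4849 normalized counts in TG-1, TG-2 and TG-3, against 6546, 6280 and 5335 in the respective WT libraries, with a log2 fold change of -0.03 (95% interval from -0.35 to 0.29).

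**Figure D2:**
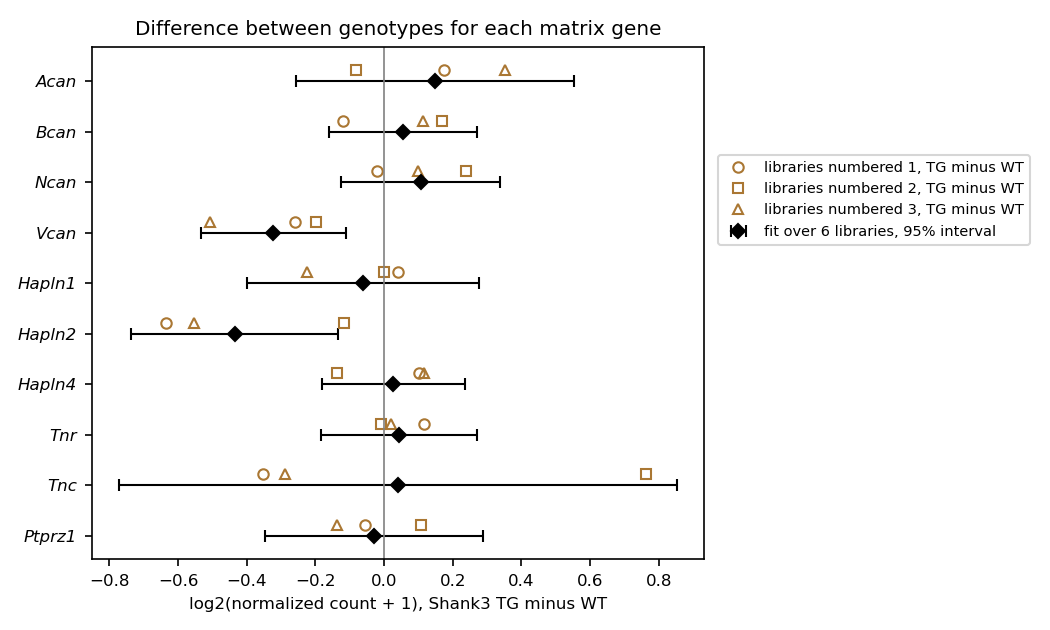
Difference in log2(normalized count + 1) between *Shank3* TG and WT for each matrix gene, as the fitted value with its 95% interval (black) and as the difference at each replicate number (open symbols). The intervals of *Vcan* and *Hapln2* lie below 0, and the intervals of the other 8 genes hold 0.

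Levels were compared between genes per kilobase, with the normalized count divided by the length of all annotated exons of the gene, which understates genes with long rare exons. Over the 6 libraries the order was *Bcan* (1581 ± 122 normalized counts per kilobase, SD, n = 6), *Ncan* (1161 ± 108), *Hapln4* (973 ± 68.8), *Tnr* (534 ± 42.8), *Ptprz1* (422 ± 52.6), *Hapln2* (135 ± 24.8), *Hapln1* (120 ± 15.1), *Vcan* (44.0 ± 5.78), *Tnc* (14.2 ± 4.81) and *Acan* (12.2 ± 1.52). The ranges over the libraries overlapped between *Ncan* and *Hapln4*, between *Tnr* and *Ptprz1*, between *Hapln2* and *Hapln1* and between *Tnc* and *Acan*, and not between the other neighbours in this order. The order was the same within each genotype except for *Hapln2* and *Hapln1*. In WT, *Hapln2* (155 ± 6.49, SD, n = 3) lay above *Hapln1* (122 ± 11.3) without overlap, and in *Shank3* TG the values were 115 ± 18.1 and 117 ± 20.7, with overlap. On this scale *Bcan* and *Acan* stood at opposite ends, above 95.7% and above 15.5% of all tested genes. Within the lecticans, *Bcan* made up 56.2% ± 0.988 (SD, n = 3) of the summed level per kilobase in *Shank3* TG and 56.8% ± 0.655 in WT, and *Vcan* 1.37% ± 0.0390 and 1.81% ± 0.239. The *Vcan* share was at most 1.41% in *Shank3* TG and at least 1.60% in WT. Among the 4 link protein genes, *Hapln4* made up 80.5% ± 3.42 in *Shank3* TG and 77.4% ± 0.370 in WT, and *Hapln2* 9.52% ± 2.01 and 12.5% ± 0.902. Both shares overlapped between the genotypes. In TG-2 the share of *Hapln4* was 76.6%, below all WT libraries, and that of *Hapln2* was 11.72%, above 11.69% in WT-2.

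**Figure D3:**
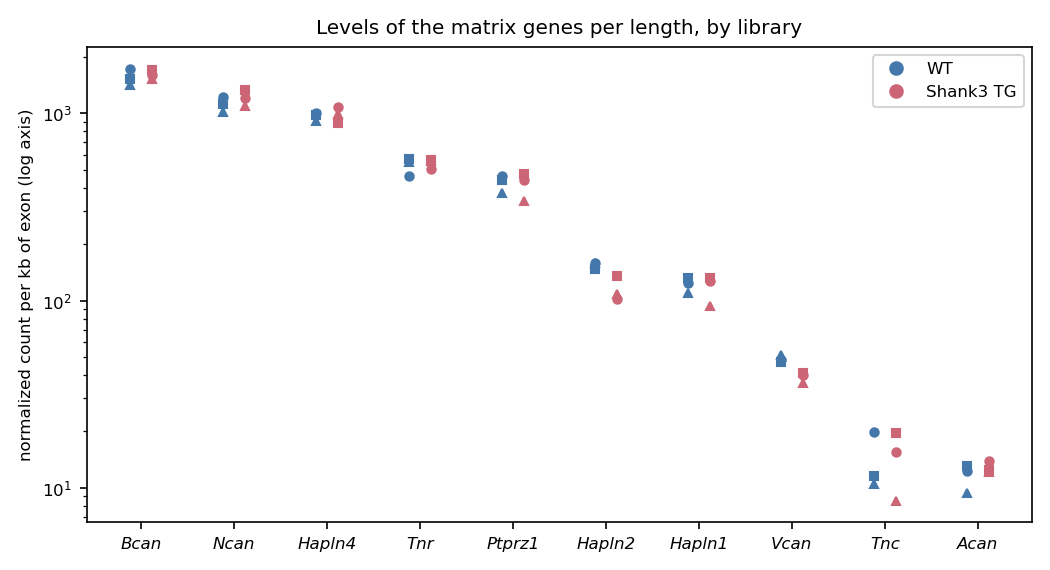
Level of each matrix gene in normalized counts per kilobase of exon (log axis) in the 6 libraries, ordered by the mean, with WT in blue and *Shank3* TG in red. *Bcan* is the highest at 1581 and *Acan* the lowest at 12.2 on average.

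Markers of other cells were read beside the lower genes. The 14 markers of myelinating oligodendrocytes summed to between 83120 and 107312 normalized counts in *Shank3* TG and between 123606 and 125506 in WT, and all 14 had lower means in *Shank3* TG (median log2 fold change -0.43). Among those that added the most normalized counts were the structural myelin genes *Mbp* and *Mobp*, with log2 fold changes of -0.46 and -0.54. The list was known to be lower from earlier results of these data and is no independent evidence of its direction. Per 1000 normalized counts of that sum, *Hapln2* had 2.90, 3.00 and 3.08 in TG-1 to TG-3 and 3.01, 2.82 and 3.00 in WT-1 to WT-3. The means of 2.99 ± 0.0870 (SD, n = 3) and 2.94 ± 0.105 differed by less than the spread between the libraries, and the groups overlapped. *Vcan* had 6.98, 5.55 and 6.29 per 1000 of the same sum in *Shank3* TG and 5.58, 5.53 and 5.92 in WT, with overlap.

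The oligodendrocyte precursor markers, of which 9 were found, summed to between 6020 and 6942 normalized counts in *Shank3* TG and between 6252 and 7413 in WT, with overlap and a median log2 fold change of -0.03. *Pdgfra*, the defining receptor of these cells, had a log2 fold change of -0.03, with *Olig1* at -0.14 and *Gpr17* at -0.05. Of the 9 genes, 4 had higher means in *Shank3* TG, up to 0.32 for *Bmp4*. Without overlap between the groups, 1 gene (*Bmp4*) was higher and 0 lower, against 2.91% and 3.12% of all tested genes. Per 1000 normalized counts of the precursor sum, *Vcan* had 88.3 ± 7.17 (SD, n = 3) in *Shank3* TG, against 105 ± 9.44 in WT, and TG-1 at 96.4 lay above WT-1 at 93.8. The 10 astrocyte markers, of which the transporter genes *Slc1a2* and *Slc1a3* and the connexin gene *Gja1* added the most, summed to between 120404 and 133822 normalized counts in *Shank3* TG and between 123662 and 139532 in WT. The part of oligodendrocytes or their precursors in the *Vcan* and *Hapln2* values was not tested.

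Markers of tissue next to the mPFC also differed between the libraries. The 7 choroid plexus markers found summed to 276, 191 and 606 normalized counts in TG-1, TG-2 and TG-3, against 151, 143 and 304 in the respective WT libraries, so that the library numbered 3 was the highest of each genotype. The 7 olfactory bulb and neuroblast markers summed to between 1975 and 3246 normalized counts in *Shank3* TG, with TG-2 the highest, and between 1911 and 2513 in WT. All 7 had log2 fold changes above 0, with a median of 0.36. The median log2 difference was -0.07, 1.66 and -0.41 at the replicate numbers 1, 2 and 3. Their part in the values of the matrix genes was not tested.

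**Figure D4:**
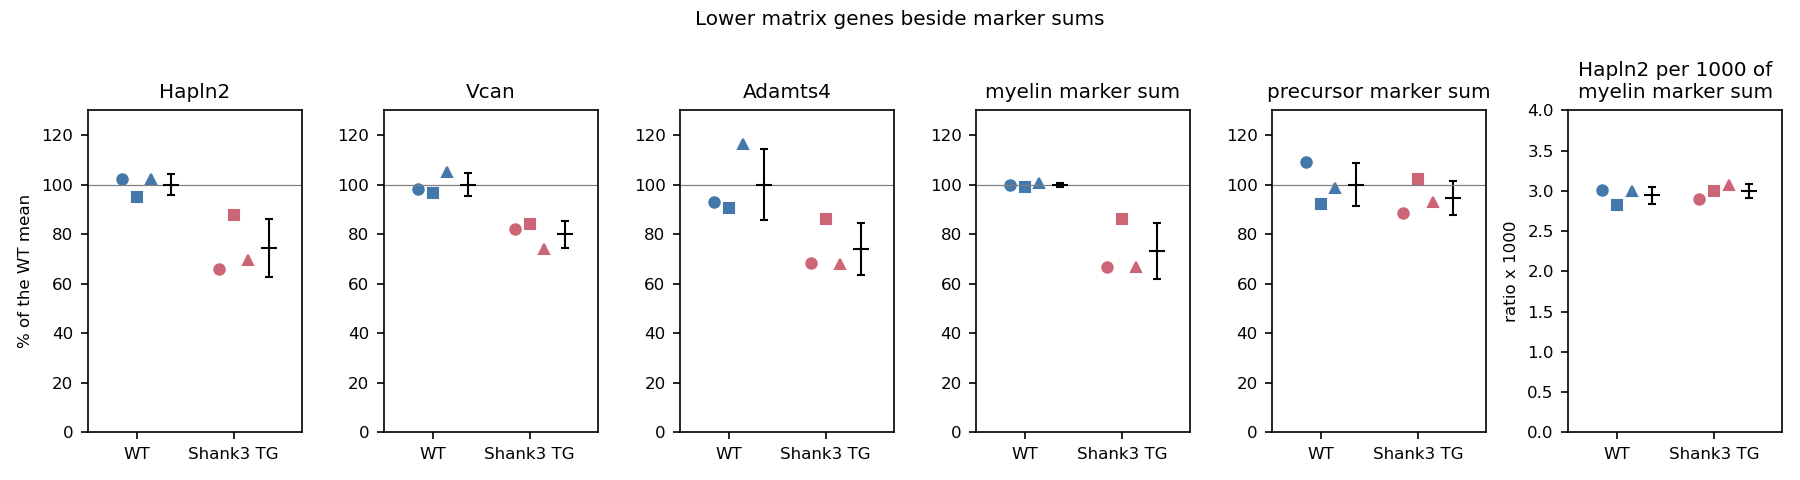
*Hapln2*, *Vcan*, the protease gene *Adamts4*, and the summed myelin and precursor markers in percent of the WT mean, and *Hapln2* per 1000 of the myelin sum, in WT (blue) and *Shank3* TG (red) libraries with the mean and SD in black. Among the *Shank3* TG libraries, all 3 genes and both sums are highest in TG-2, and the ratio in the last panel overlaps between the genotypes around means of 2.99 and 2.94.

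By pattern across the 6 libraries, the genes most like *Hapln2* were *Nubpl* and the myelin gene *Mog*, with a root-mean-square difference of 0.04 and 0.06 in centred log2 values against 0.25 for the spread of *Hapln2* itself. Those most like *Vcan* were *Aspa*, an enzyme gene of oligodendrocytes, and *Acot1*, at 0.05 each against a spread of 0.18. *Bcan* was nearest to *Adcy5* and *Ehbp1l1*, *Ncan* to *Arhgef26* and *Tmem35a*, *Hapln1* to *Ptbp3* and *Fbxo30*, *Hapln4* to *Ttl* and *Nfe2l1*, *Tnr* to *Chm* and *Ehd3* and *Ptprz1* to *Zfp866* and *Tmod3*, all at 0.02 to 0.03. *Acan* was nearest to *Gm20939* and *Lurap1l* at 0.04 each, and *Tnc* to *Clec3b* and *Tpt1-ps3* at 0.14 and 0.15. These are descriptions over 6 libraries that share the contrast between the genotypes and that of the libraries numbered 3.

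The rest of the pathway was read from 7 lists by role, with 113 genes found and 112 tested. By limma's test 0 had an adjusted p-value under 0.05, and the count at an unadjusted p-value under 0.05 was 3 higher and 1 lower in *Shank3* TG, against 0.933% and 1.08% of all tested genes. Without overlap between the groups there were 11 higher and 2 lower, against 2.91% and 3.12% of all tested genes. The 2 lower were the protease genes *Adamts4* and *Adamts20*. Of the 11 higher, 5 were in the list of other brain matrix proteins, and *Has3*, *Hyal3*, *Dse*, *Mmp14* and *Rtn4rl2* were among the rest. With the replicate number as a term, 11 of the 112 were higher and 6 lower at an unadjusted p-value under 0.05, against 2.33% and 2.66% of all tested genes, and 0 had an adjusted p-value under 0.05. The 6 lower genes were *Thbs4*, *Spock3*, *Adamts4*, *Ptprd*, *Itih3* and *Adamts20*. Of the 11 higher genes, 7 were in the list of other brain matrix proteins, and the rest were *Hyal2*, *Cd44*, *Rtn4rl2* and *Nptxr*. The median log2 fold change of the 112 genes was 0.03.

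*Adamts4* encodes a protease that cuts aggrecan and brevican. It stood at 447, 565 and 444 normalized counts in TG-1, TG-2 and TG-3, against 609, 595 and 763 in the respective WT libraries, and its log2 fold change was -0.43 (standard error 0.14). By limma's test the unadjusted p-value was 0.0156 and the adjusted p-value 1, and without the libraries numbered 3 the log2 fold change was -0.26 at an unadjusted p-value of 0.0853. Without TG-1 alone the unadjusted p-value was 0.0559. Per 1000 of the myelin marker sum it had 5.33 ± 0.0560 (SD, n = 3) in *Shank3* TG, against 5.26 ± 0.712 in WT. Of the 18 proteases tested, the most abundant per kilobase, the cathepsin genes *Ctsb* and *Ctss*, had log2 fold changes of 0.01 and -0.05. The 7 protease inhibitors ranged from -0.15 to 0.07, led by *Timp2* at 0.07 and *Serpini1* at 0.03.

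The hyaluronan synthases, named after their values were seen, were of low level. *Has3* stood at 86.7, 93.4 and 96.2 normalized counts in TG-1, TG-2 and TG-3, against 69.3, 74.2 and 83.0 in the respective WT libraries without overlap, but its interval held 0 (log2 fold change 0.29, from -0.06 to 0.63). *Has1* and *Has2* had at most 33.6 normalized counts in any library. Of the 15 genes of hyaluronan synthesis, turnover and binding, 0 had an unadjusted p-value under 0.05, and the same held for the 21 tested genes of chondroitin sulfate synthesis, whose median log2 fold change was 0.03. Of all tested genes, 2.01% had an unadjusted p-value under 0.05. With the replicate number as a term, *Hyal2*, *Cd44* and *Itih3* of the first list had unadjusted p-values of 0.0354, 0.0479 and 0.0315, and 0 genes of the second list were under 0.05, against 4.98% of all tested genes. The most abundant of the latter, *B3gat3* of the linker region and the polymerizing factor gene *Chpf*, had log2 fold changes of 0.10 and -0.02, and of the former *Itih5* and *Itih3*, heavy chains of hyaluronan-binding inhibitors, 0.02 and -0.28.

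Receptors that bind chondroitin sulfate proteoglycans and partners held by the matrix had no gene at an unadjusted p-value under 0.05 among 9 and 12 tested, against 2.01% of all tested genes. With the replicate number as a term, *Ptprd* and *Rtn4rl2* of the receptors had unadjusted p-values of 0.0276 and 0.0372 by limma's test, and *Nptxr* of the partners 0.0259, against 4.98% of all tested genes under 0.05. *Lingo1* and *Rtn4r*, of the Nogo receptor complex, had log2 fold changes of 0.06 and 0.09. *Nptxr*, the neuronal pentraxin receptor, had 0.24 (standard error 0.21) and *Nptx1* -0.03.

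The 3 higher genes were in the list of 30 other brain matrix proteins. *Fmod*, fibromodulin, stood at 645, 717 and 637 normalized counts in TG-1, TG-2 and TG-3, against 551, 528 and 525 in the respective WT libraries, with a log2 fold change of 0.32 (standard error 0.09). *Fbln1*, fibulin 1, had 289 ± 32.1 (SD, n = 3) and 227 ± 17.1, and *Matn2*, matrilin 2, stood at 699, 669 and 578, against 555, 550 and 534. Each was higher in every *Shank3* TG library than in the WT libraries, with unadjusted p-values in limma's test of 0.0072, 0.0248 and 0.0387 and adjusted p-values of 1. With single libraries left out, the unadjusted p-value reached 0.0936 for *Fbln1* (without TG-2, and 0.0555 without TG-1 and 0.0784 without WT-2) and 0.143 for *Matn2* (without TG-1), which was above 0.05 without any single library other than TG-3. The 8 leptomeningeal fibroblast markers summed to between 4349 and 5057 normalized counts in *Shank3* TG and between 3636 and 4325 in WT, and all 8 had higher means in *Shank3* TG, with *Igf2*, *Col1a2* and *Islr* adding the most normalized counts. The part of these cells in the 3 values was not tested. Per 1000 of that sum, *Fmod* had 141 ± 5.49 and 138 ± 9.43, *Fbln1* 61.1 ± 2.50 and 58.6 ± 3.02 and *Matn2* 137 ± 8.14 and 141 ± 11.5 in *Shank3* TG and WT, with overlap for each gene. The most abundant genes of the list, *Sparcl1* and *Spock2*, had log2 fold changes of -0.09 and 0.02. With the replicate number as a term, this list of 30 had 7 genes higher and 2 lower at an unadjusted p-value under 0.05, against 2.33% and 2.66% of all tested genes. The 7 higher included *Fmod*, *Fbln1* and *Matn2*. The 2 lower were *Thbs4* (0.00114 in that fit) and *Spock3* (0.00243), whose groups overlapped.

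**Figure D5:**
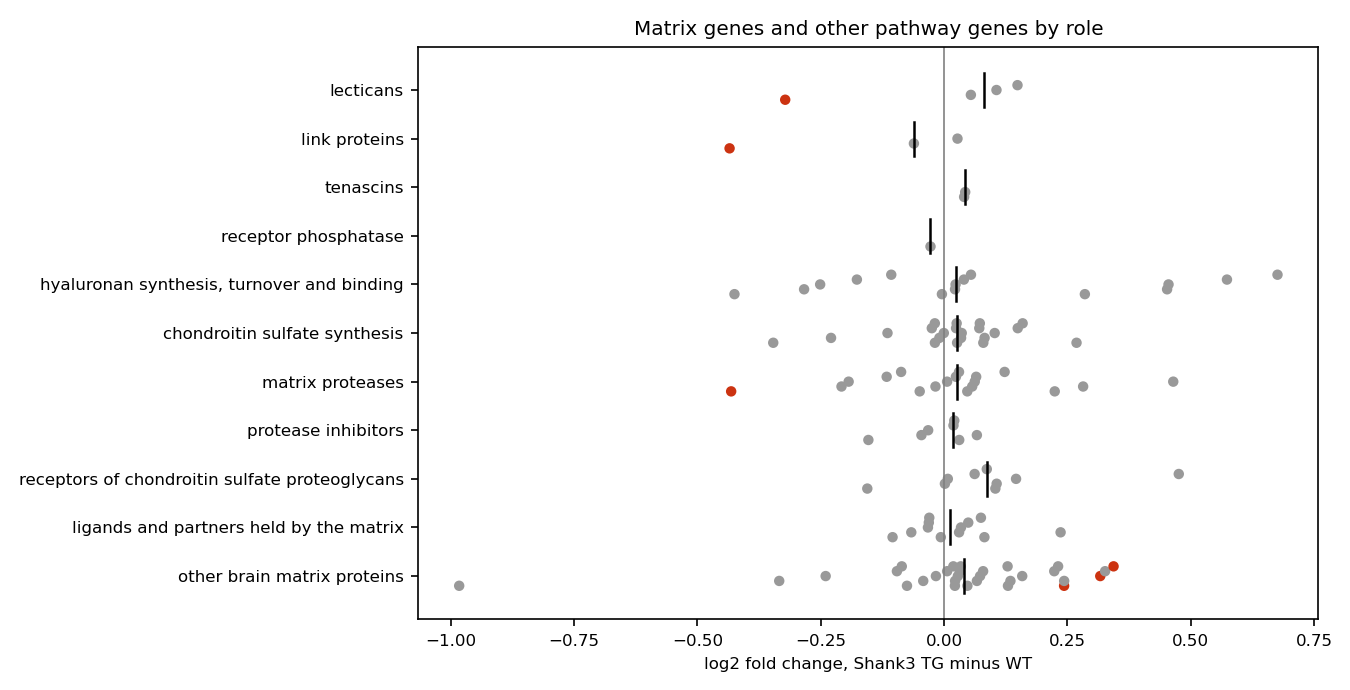
Log2 fold change between *Shank3* TG and WT of the 10 matrix genes (top 4 rows) and the 112 other tested pathway genes by role, with medians as black bars and genes at an unadjusted p-value under 0.05 in red. The red genes are *Vcan*, *Hapln2*, *Adamts4*, *Fmod*, *Fbln1* and *Matn2*.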

How the data were processed

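Stranded mRNA libraries of the mPFC were sequenced, and the authors estimated transcript abundance with Salmon 0.9.1 on GRCm38 with GC bias correction, imported it with tximport in R 3.6.0 and normalized it in DESeq2 1.19.11. The deposited signal is the normalized count per gene, for 18254 genes and 6 libraries. The values are not whole numbers: at most 41.1% of those between 0 and 20 in a library lay within a tolerance of 0.05 of a multiple of one step, so reads were not recovered and no count test was made. Names, positions and exon lengths came from GENCODE release M21 (GRCm38), in which 18215 identifiers had a name.

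Fits used limma 3.58.1 in R 4.3.3 with genotype alone, a pseudocount of 1, a mean of at least 5 normalized counts and eBayes with a trend. They were also run on simulated data, and that outcome is not given here and backs no result. The members and lists were chosen with earlier results of these data known. In all, 4 listed genes other than the members were not in the table, and *Tmem2* was found there as *Cemip2*. Named genes are the 10 members, the other pathway genes at an unadjusted p-value under 0.05, the 2 most abundant per kilobase of each list, the 2 genes nearest to each member in pattern, and, of the parvalbumin, precursor, astrocyte and leptomeningeal lists, the 3 with the most normalized counts, with those compared with a member. The myelin list is named in part, since a gene is not reported here, and of the choroid plexus and olfactory bulb lists only the sums are given. The *Has* genes, *Hapln3*, *Bmp4* and the further pathway genes named for the blocked fit or for groups without overlap were chosen after their values were seen. Same-numbered libraries were taken as pairs, because their deviations from the genotype means correlated at 0.30, 0.33 and 0.62 across genes, each over 0.1. Only the libraries numbered 3 stood clear of the other combinations, which reached 0.27 for TG-1 with WT-2 and 0.23 for TG-2 with WT-1. A blocked fit held that number as a term, whereas the main fit left it out. The share of all tested genes at an unadjusted p-value under 0.05 was 2.01% in the main fit and 4.98% in the blocked fit. The other alternatives were pseudocounts of 0.1 and 5, other filters and scalings, other eBayes options, an empirical null and left-out libraries.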

Additional observations from a re-analysis of the deposited data

How the results depend on the processing

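*Vcan* and *Hapln2* kept their direction and an unadjusted p-value under 0.05 under all 17 alternatives, and neither had an adjusted p-value under 0.05 under any of them. The log2 fold change of *Vcan* ranged from -0.36 without TG-2 to -0.23 without the libraries numbered 3, and that of *Hapln2* from -0.56 without TG-2 to -0.35 without TG-1. The smallest adjusted p-values, 0.0713 for *Vcan* and 0.0951 for *Hapln2*, came from limma's p-values rescaled to the empirical null. Without that rescaling the smallest in limma's test were 0.572 and 0.607, with the replicate block. Under the replicate block, the unadjusted p-values were 0.00485 and 0.00614, the count of matrix genes with an adjusted p-value under 0.05 stayed at 0, and no call on them changed.

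The count of all genes with an adjusted p-value under 0.05 was 1 instead of 0 with the replicate block, with upper quartile scaling, with the robust option and without the libraries numbered 3, and 26 with the empirical null. With single libraries left out it lay between 0 and 1. The median log2 fold change of the 10 genes lay between -0.066 and 0.093 with single libraries left out.

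Of 238 values recomputed for named genes, 15 changed sign, and the cause was not tested. Without the libraries numbered 3 the log2 fold change was 0.020 for *Hapln1*, -0.018 for *Hapln4* and 0.026 for *Ptprz1*. The other 12 came from single libraries left out, with the lowest and highest values -0.013 and 0.13 for *Bcan*, -0.15 and 0.094 for *Hapln1*, -0.041 and 0.099 for *Hapln4*, -0.048 and 0.10 for *Tnr*, -0.21 and 0.38 for *Tnc* and -0.13 and 0.11 for *Ptprz1*. The number of reads behind the values is unknown, so the spread between 3 pools a group limits what can be seen.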
